A study of Homo sapiens with 4 samples.

Results

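The 10 globin genes of the human genome that code for haemoglobin chains were followed in K562 cells, a human erythroleukaemia line, before and after hemin. The genes were chosen by name, with earlier results of these data known, and are 10 of the 61498 genes in the files. Of these, 5 are alpha-like (HBZ, HBM, HBA2, HBA1 and HBQ1) and 5 are beta-like (HBE1, HBG2, HBG1, HBD and HBB). Poly(A) RNA was sequenced in 4 libraries. The untreated group comprised 2 libraries, and the hemin group comprised 2 libraries of cells kept for 108 h with 50 µM hemin, the iron-containing porphyrin that drives K562 cells toward the erythroid state. All 4 came from the same leukaemia line, so neither group is a normal erythroid cell. The labels do not say whether replicates were separate cultures. The p-values therefore measure only the spread between these libraries, which may be technical.

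Haemoglobin is built from a pair of alpha-like and a pair of beta-like chains, each holding a heme. In development the genes of both clusters are switched in order. HBZ (zeta) and HBE1 (epsilon) serve the embryo, HBG1 and HBG2 (the gamma chains) serve the fetus, and HBB (beta) with a little HBD (delta) serves the adult, while HBA1 and HBA2 (alpha) serve fetus and adult alike. HBM (mu) and HBQ1 (theta) are alpha-like genes with no established place in the main haemoglobins. K562 cells are known for making embryonic and fetal globins and hardly any adult beta chain.

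The alpha-like genes lie in 5′ to 3′ order on the plus strand of chromosome 16 (GRCh38, canonical transcripts of GENCODE 44). HBZ spans chr16:152644-154503, HBM chr16:165978-166764, HBA2 chr16:172876-173710, HBA1 chr16:176680-177522 and HBQ1 chr16:180459-181179. The beta-like genes lie on the minus strand of chromosome 11, with HBE1 at chr11:5268345-5269945, HBG2 at chr11:5253188-5254781, HBG1 at chr11:5248269-5249857, HBD at chr11:5232838-5234483 and HBB at chr11:5225464-5227071. Each of the 10 canonical transcripts has 3 exons.

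How far these genes can be told apart by reads of 50 bases decides how their values may be read. The coding sequences of HBA1 and HBA2 are identical over 426 bases. Those of HBG1 and HBG2 are 99.5% identical over 441 bases and differ at 2 positions, C227T in codon 76 and C410G in codon 137, counted from 1 at the A of the start codon with the HBG1 base first. The stretch of 50 coding bases around each difference is shown because only reads across such a base, or in the untranslated ends, separate the genes. The capital marks the differing base.

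HBG1, bases 202 to 251: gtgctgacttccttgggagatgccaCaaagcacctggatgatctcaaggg

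HBG2, bases 202 to 251: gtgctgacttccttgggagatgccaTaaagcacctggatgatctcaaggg

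HBG1, bases 385 to 434: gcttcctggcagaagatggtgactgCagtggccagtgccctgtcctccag

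HBG2, bases 385 to 434: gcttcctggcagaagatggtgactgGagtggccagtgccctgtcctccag

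Of all 50-base windows in the canonical transcript, 81.8% of those of HBA2 and 81.6% of those of HBA1 also occur in the other gene. HBG2 shares 67.8% and HBG1 67.7% of its windows with the other gamma gene. A further gene of the annotation, ENSG00000284931, lies across both at chr11:5248270-5254783. It joins the start of HBG2 to the end of HBG1, and of the 539 windows in its transcript of 588 bases only 2 occur in neither gamma gene. In its other transcript, of 651 bases, 49 of 602 windows occur in neither. This gene holds 90.5% of the windows of HBG1 and 77.1% of those of HBG2. Only 9.5% of the windows of HBG1 and 22.9% of those of HBG2 occur in no other gene. HBZ shares 41.1% of its windows with the pseudogene HBZP1 and 20.8% with transcripts that the annotation lists under HBM. The coding sequences of HBD and HBB have 410 of 441 bases in common, yet only 3.0% of the windows of HBD occur in HBB. HBE1 shares 83.3% of its windows with the long read-through gene ENSG00000239920, which also holds sequence of its own. HBM and HBQ1 share no window of their canonical transcripts with another gene. Reads that fit both HBZ and those HBM transcripts were divided by RSEM, so the value of HBM given here rests on that division too.

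The expected counts, which are RSEM's estimates of the reads from each gene, summed to between 7455447 and 8241534 per library. RSEM divides a read that maps to several genes between them, and its posterior SD describes how firmly that division is set. TPM are transcript abundances scaled by length to the same total in every library. Erythroid markers other than AHSP were read in all libraries. They summed to 1160 and 1208 TPM untreated and to 1206 and 1203 TPM after hemin. Of the 10 erythroid markers 9 were tested, with 1 called higher and 1 lower, against 7.0% and 7.14% of all genes tested. TFRC, the transferrin receptor, was called higher (log2 fold change 0.23, edgeR adjusted p = 0.0067). ALAS2, the erythroid enzyme of heme synthesis, was called lower after hemin (log2 fold change -0.25, edgeR adjusted p = 0.0252). SLC4A1 stood at 2.41 and 2.5 TPM untreated and at 0.54 and 1.37 TPM after hemin, and was not called (log2 fold change -0.84, edgeR adjusted p = 0.144). The part of these markers in the results on globins was not tested. The summed megakaryocyte markers reached at most 7.35 TPM, the T cell, B cell and the monocyte and granulocyte markers at most 1.64, 1.62 and 0.54 TPM. Of the epithelial markers, EPCAM was read at 42.4 to 49.2 TPM and KRT5 at no more than 0.38 TPM. Mitochondrial transcripts took 23.1% to 24.7% of all TPM. In bulk libraries a change in the number of cells that make a globin cannot be told apart from a change in RNA per cell.

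The embryonic and fetal beta-like genes were the highest of the globins in both groups. In order of mean TPM, the untreated cells had HBE1, HBG2, HBG1, HBA1, HBA2, HBZ, HBQ1, HBD, HBB and HBM, and the order was the same after hemin. Each gene lay above the next in TPM in both libraries of its group, so neighbours in the order did not overlap on that scale. In expected counts, with no division by length, HBZ lay above HBA2 in every library. HBZ took 969 and 843 counts untreated and 1392 and 1578 after hemin. HBA2 took 713 and 791 untreated and 1199 and 1257 after hemin. RSEM's 95% TPM intervals of HBA2 and HBZ overlapped in untreated replicate 1 and in both hemin libraries. HBA1 lay above HBG1 in counts in hemin replicate 2, at 2876 against 2843. The order of HBB and HBM rests on 2 or fewer counts and is not resolved. HBE1 ranked 52 and 48 among all genes by TPM in the untreated libraries and 38 and 35 after hemin. HBD ranked no higher than 7130 in any library.

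**Figure D1:**
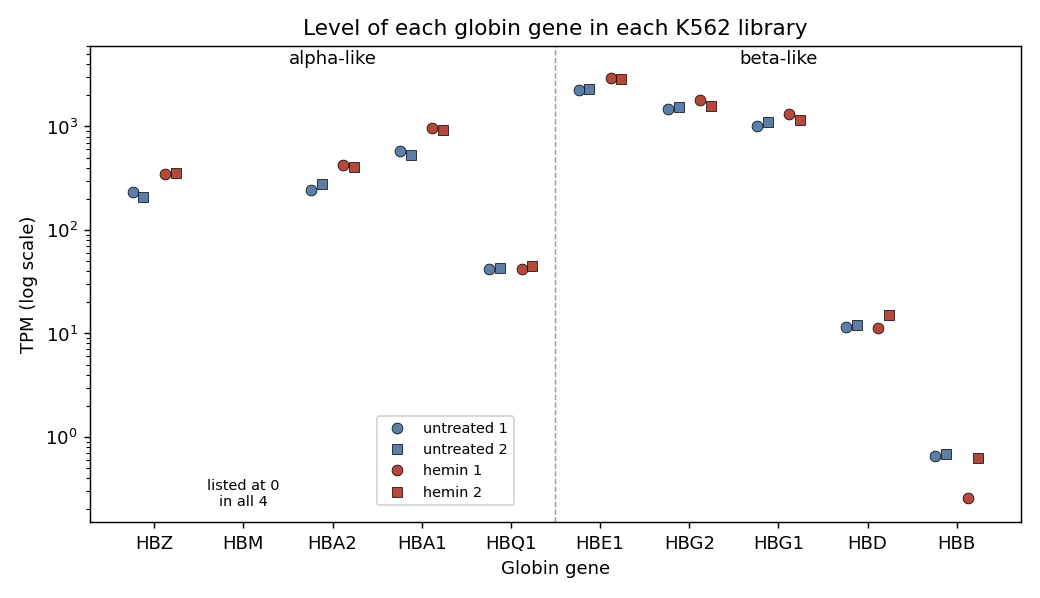
TPM of each globin gene on a log scale, 1 point per library (blue untreated, red hemin, circles replicate 1, squares replicate 2). The levels run from 2228 to 2972 TPM for HBE1 down to at most 0.68 TPM for HBB, HBM is listed at 0, and the red points lie above the blue ones for HBZ, HBA2, HBA1, HBE1, HBG2 and HBG1.

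Globin RNA was higher after hemin. Summed over the 10 genes it stood at 5834 and 5985 TPM in the untreated libraries and at 7893 and 7369 TPM in the hemin libraries. This is 0.583% and 0.599% of all TPM against 0.789% and 0.737%, and the groups do not overlap. The exact two-sided permutation test gave p = 0.333 for this share, the smallest value that 2 libraries against 2 can give, so the test cannot pass 0.05 for any share or ratio given here. The globin genes are short, and in expected counts, with no division by length, they took a smaller share, 0.231% of the reads in untreated cells and 0.298% after hemin. With lengths cut by the stated mean fragment length the shares were 0.733% and 0.95%. Of the difference in mean TPM, HBE1 made up 39.5%, HBA1 22.6%, HBG1 11.2%, HBG2 10.04%, HBA2 8.96% and HBZ 7.56%.

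Of the 10 genes, 8 had enough reads to be tested, and 4 of these were called higher after hemin. The call was an adjusted p under 0.05, from the quasi-likelihood F test of edgeR, with the Benjamini-Hochberg correction taken over 14458 genes. They were HBA1, HBZ, HBA2 and HBE1. Among all genes tested, 7.0% were called higher and 7.14% lower. Among those with a mean of at least 50 TPM, 522 of 2872 or 18.2% were called higher. None of the 8 was called lower. At an unadjusted p under 0.05, 0 were lower in edgeR and limma, which fitted 8, and in DESeq2, which fitted 9. At that unadjusted threshold 6 of 8 were higher in edgeR, 5 of 9 in DESeq2 and 5 of 8 in limma. In edgeR these included HBG2 (unadjusted p = 0.0132) and HBG1 (unadjusted p = 0.0112). The share of all genes at the unadjusted threshold was not counted. The median log2 fold change of the 8 was 0.33 against -0.005 over all genes tested. Both hemin libraries lay above both untreated libraries in TPM for 6 of the 8, against 21.3% of all genes tested, and below them for none, against 28.5%. The 8 include HBA1 with HBA2 and HBG1 with HBG2, pairs whose shared reads RSEM divides. The members of a pair are therefore not independent in these counts or in the median. With each pair summed, 3 rows were called higher, HBZ, HBE1 and HBA1 plus HBA2.

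Among the alpha-like genes, HBA1, which codes for the alpha chain, had the largest log2 fold change. It stood at 580.3 and 525 TPM in the untreated libraries and at 967 and 917 TPM after hemin. Its log2 fold change was 0.80 (standard error 0.05, edgeR adjusted p = 4.65e-05). HBA2, the neighbouring gene for the same chain, stood at 244 and 279 TPM in the untreated libraries and at 425 and 407 TPM after hemin. The groups of both genes are separated by more than their spread. For HBA2 the log2 fold change was 0.70 (standard error 0.07, edgeR adjusted p = 5e-04).

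HBA1 held the larger part of the alpha reads in every library, with an HBA1 to HBA2 ratio of TPM of 2.37 and 1.88 untreated and 2.28 and 2.25 after hemin. The ratios overlap. RSEM's posterior SD was 64.7 to 100.2 reads for each of the genes and nearly equal between them in every library. HBA1 plus HBA2 took 2433 and 2292 expected counts in untreated cells and 3958 and 4134 after hemin. Fitted as 1 row, the pair had a log2 fold change of 0.77 (standard error 0.04, edgeR adjusted p = 2.38e-05).

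HBZ, the embryonic zeta chain, also rose. It was read at 230.3 and 208 TPM untreated and at 344 and 355 TPM after hemin, with no overlap. The log2 fold change was 0.70 (standard error 0.05, edgeR adjusted p = 1.51e-04). Its posterior SD of 27.9 to 39.4 reads nearly equals that of HBZP1 in each library, the pseudogene it shares windows with. HBZP1 itself took 227 and 293 expected counts untreated and 448 and 460 after hemin, a log2 fold change of 0.80 (standard error 0.12, edgeR adjusted p = 0.0036). With the 2 summed, the log2 fold change was 0.73 (standard error 0.04, edgeR adjusted p = 2.72e-05), a fit added after the values were seen. How many of the HBZP1 reads came from HBZ was not tested.

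HBQ1, the theta gene, was not called. It stood at 42.0 and 43.15 TPM untreated and at 42.1 and 44.6 TPM after hemin, so the groups overlap. The log2 fold change was 0.06 (standard error 0.13, edgeR adjusted p = 0.808). These values rest on 109 to 127 reads per library, all of them assigned without ambiguity. HBM, the mu gene, was listed at 0 in all 4 libraries, which allows up to 3 counts, or 0.984 to 1.08 TPM, in each. That limit covers counting error only. RSEM's 95% TPM intervals of HBM reached higher, to upper bounds of 2.45 to 2.73 TPM.

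HBE1, the embryonic epsilon chain, was the most abundant globin RNA and rose after hemin. It was read at 2228 and 2286 TPM in untreated cells and at 2972 and 2902 TPM in treated cells. The log2 fold change was 0.41 (standard error 0.04, edgeR adjusted p = 4.45e-04), a smaller one than those of HBZ, HBA1 and HBA2. The difference between these genes was not tested. The division of HBE1 reads was firm, with a posterior SD of 7.98 to 9.39 reads on 7203 to 9983.

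HBG2 and HBG1, the fetal gamma chains, were higher in both hemin libraries but were not called. HBG2 stood at 1484 and 1536 TPM untreated and at 1805 and 1561 TPM after hemin. Its log2 fold change was 0.19 (standard error 0.06, edgeR adjusted p = 0.0727). HBG1 stood at 1013 and 1096 TPM untreated and at 1326 and 1167 TPM after hemin, a log2 fold change of 0.26 (standard error 0.08, edgeR adjusted p = 0.0658). For both genes hemin replicate 2 lay close to the untreated libraries and hemin replicate 1 well above them. Without hemin replicate 2 both were called higher, HBG2 at 0.28 (edgeR adjusted p = 0.00128) and HBG1 at 0.39 (edgeR adjusted p = 4.1e-04). Without hemin replicate 1 the values were 0.09 for HBG2 and 0.14 for HBG1.

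The gap between the hemin replicates had its counterpart in the read-through gene ENSG00000284931. It was assigned 1866 and 1873 expected counts in the untreated libraries, 1752 in hemin replicate 1 and 2599 in hemin replicate 2. Its posterior SD was 223 to 252 reads, larger than that of either gamma gene. Of all reads of HBG1, HBG2 and this gene, it was given 21.3% and 21.0% untreated, and 17.3% and 24.9% after hemin. Summed over the 3 genes, the gamma reads came to 8748 and 8924 untreated and to 10143 and 10438 after hemin. In TPM the sum was 3113 and 3274 untreated and 3733 and 3540 after hemin. The hemin replicates are then closer to each other than in HBG1 plus HBG2 alone, which stood at 3131 and 2728 TPM after hemin.

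Fitted as 1 row, HBG1, HBG2 and the read-through gene had a log2 fold change of 0.21 (standard error 0.05, edgeR adjusted p = 0.0181), a 1.16-fold increase that passed the threshold. HBG1 plus HBG2 without the read-through gene gave the same size, 0.21, with a larger standard error of 0.07 and an edgeR adjusted p of 0.0643. The row with the read-through gene was added after the values were seen.

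**Figure D2:**
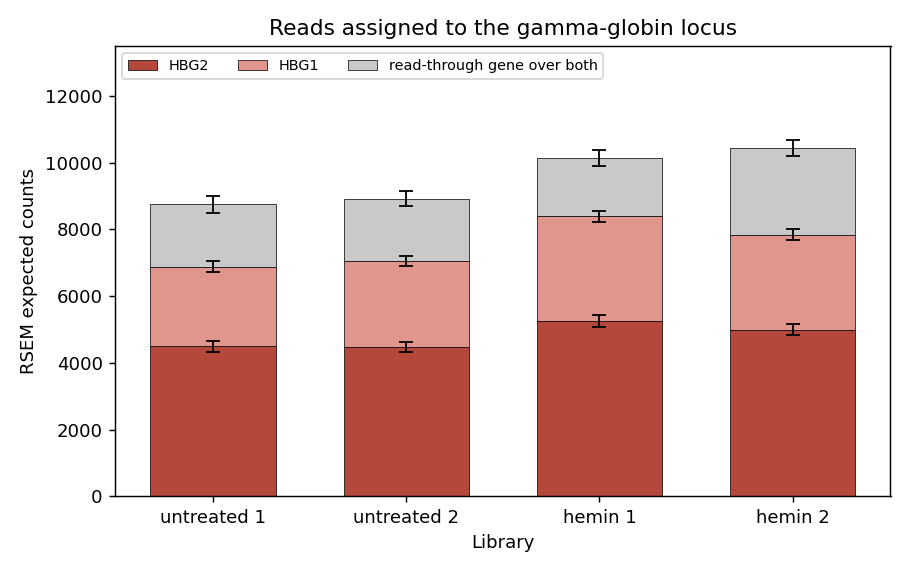
Expected counts assigned to HBG2, HBG1 and the read-through gene ENSG00000284931 in each library, stacked, with bars for RSEM's posterior SD of each gene's count. The stack reaches 8748 and 8924 untreated and 10143 and 10438 after hemin, while the grey read-through part is smallest in hemin replicate 1 and largest in hemin replicate 2.

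HBG2 lay above HBG1 in all libraries on either scale, but by how much depends on length. The HBG1 to HBG2 ratio was 0.682 and 0.713 untreated and 0.735 and 0.747 after hemin in TPM. In expected counts it was 0.533 and 0.573 untreated and 0.597 and 0.569 after hemin, where the groups overlap. RSEM gave HBG1 a mean transcript length of 459 to 486 bases and HBG2 of 587 to 588 bases, although the canonical transcripts have 587 and 586 bases. For the same reads, a shorter length gives a higher TPM.

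Of the adult beta-like genes, HBD was read at a low level and HBB hardly at all. HBD was read at 11.5 and 12.1 TPM untreated and at 11.4 and 15.1 TPM after hemin, from 46.7 to 67.2 expected counts. The groups overlap, and the log2 fold change of 0.20 (standard error 0.22, edgeR adjusted p = 0.594) fell to -0.007 without hemin replicate 2. HBB had 1 and 2 counts untreated and 1 and 2 counts after hemin. The exact 95% Poisson interval of 1 count runs from 0.0253 to 5.57 and that of 2 counts from 0.242 to 7.22. A difference in HBB was not detectable at this depth, and no fold is given. HBD and HBB together made up 0.191% to 0.278% of beta-like TPM.

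**Figure D3:**
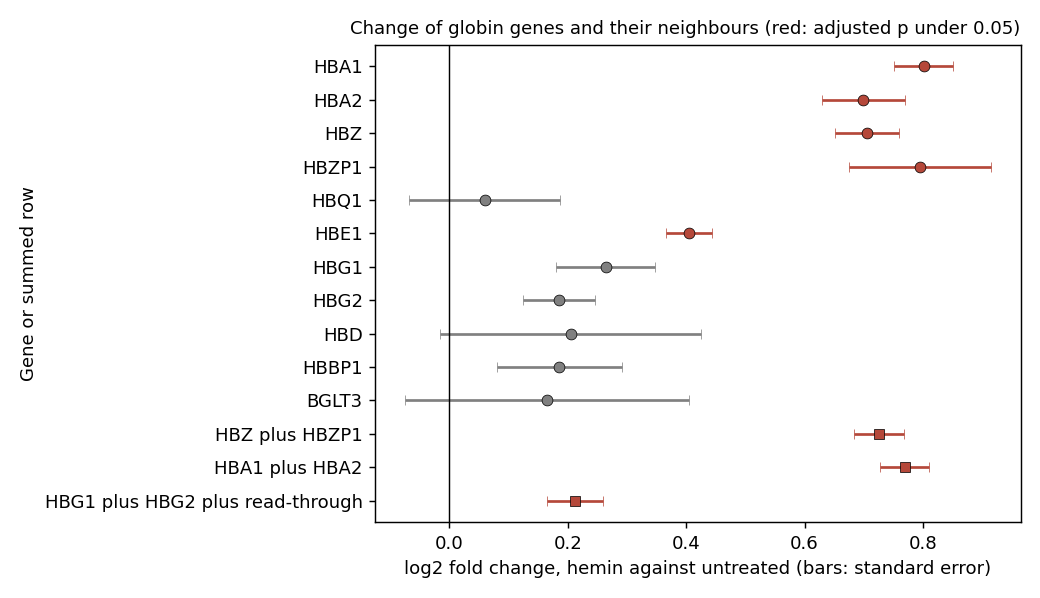
Log2 fold change, hemin against untreated, of the tested globin genes and their neighbours (circles) and of summed rows (squares), with standard errors from the edgeR fit. Red marks an adjusted p under 0.05, with HBA1, HBA2, HBZ, HBZP1 and HBE1 between 0.41 and 0.80 and the gamma sum at 0.21.

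Alpha-like RNA was outweighed by beta-like RNA in every library, and less so after hemin. The alpha-like sum was 1097 and 1055 TPM untreated and 1778 and 1724 TPM after hemin, and the beta-like sum was 4737 and 4930 TPM untreated and 6115 and 5646 TPM after hemin. The alpha-like to beta-like ratio was 0.232 and 0.214 untreated and 0.291 and 0.305 after hemin. The groups do not overlap, with means of 0.223 ± 0.0125 and 0.298 ± 0.0102 (SD, n = 2). The difference in log2 of the ratio was 0.42, at the smallest exact permutation p of 0.333.

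The ratio lay higher after hemin under each alternative run. With the read-through gene among the beta-like genes, added after the values were seen, the means were 0.197 and 0.266. In expected counts they were 0.237 and 0.317. Leaving out any 1 library kept the difference in log2 of the ratio between 0.36 and 0.48.

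Within the alpha-like genes the embryonic share overlapped between the groups. HBZ made up 21.0% and 19.7% of alpha-like TPM untreated and 19.3% and 20.6% after hemin, which overlap. HBA1 plus HBA2 made up 75.2% and 76.2% untreated and 78.3% and 76.8% after hemin. HBQ1 made up 3.83% and 4.09% untreated and 2.37% and 2.59% after hemin.

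Within the beta-like genes the share of the embryonic chain was larger in both hemin libraries. HBE1 made up 47.0% and 46.4% of beta-like TPM untreated and 48.6% and 51.4% after hemin, and HBG1 plus HBG2 made up 52.7% and 53.4% untreated and 51.2% and 48.3% after hemin. With the read-through gene counted as gamma, HBE1 made up 41.6% and 41.0% untreated and 44.2% and 44.9% after hemin, so the groups stand further apart than their spread. The exact permutation p was 0.333 for each of these shares.

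Over both clusters the balance of embryonic, fetal and adult chains differed mostly in the fetal and adult parts. The embryonic genes HBZ and HBE1 made up 42.1% and 41.7% of globin TPM untreated and 42.0% and 44.2% after hemin. These overlap, with a difference in means of 1.20 percentage points (standard error 1.12, exact permutation p = 0.667). The groups did not overlap with the read-through gene counted as gamma (means 37.9% and 39.4%) or with lengths cut by the study's stated mean fragment length (means 39.1% and 40.3%), each at the smallest exact permutation p of 0.333. The fetal genes HBG1 and HBG2 made up 42.8% and 43.98% untreated and 39.7% and 37.0% after hemin. Their mean share was lower by 5.04 percentage points (standard error 1.45, exact permutation p = 0.333). Which of the embryonic and fetal shares was larger after hemin depends on length, with means of 43.1% and 38.4% as deposited and of 40.3% and 41.1% with the stated fragment length.

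The genes counted as adult, HBA1, HBA2, HBB and HBD, made up 14.3% and 13.6% untreated and 17.8% and 18.2% after hemin. Their mean share was higher by 3.99 percentage points (standard error 0.40, exact permutation p = 0.333). Nearly all of it was HBA1 and HBA2, which pair with embryonic, fetal and adult beta-like chains alike, and HBB took at most 0.0114% of globin TPM. The fetal share was lower in both hemin libraries although gamma TPM was higher in both.

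**Figure D4:**
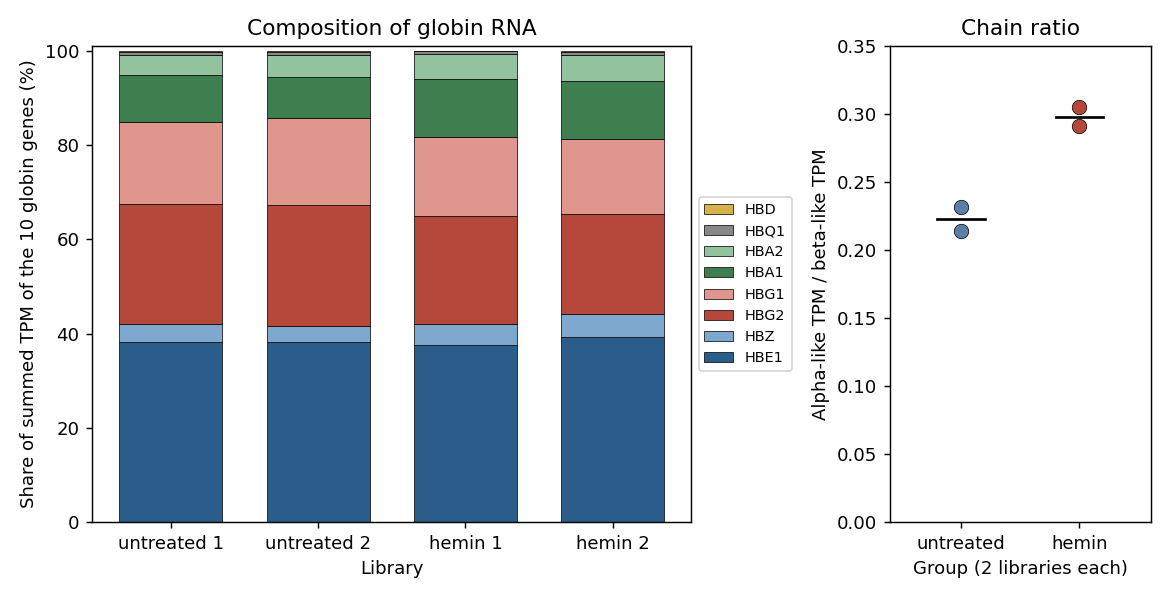
Left, share of each gene in the summed TPM of the 10 globin genes per library, with HBB and HBM too small to be drawn. Right, ratio of alpha-like to beta-like TPM, 1 point per library with a line at the group mean. The gamma share (red) is 42.8% and 43.98% untreated and 39.7% and 37.0% after hemin, and the ratio is 0.223 and 0.298 on average.

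Of the other annotated genes of the clusters, the pseudogene HBZP1 was called and the rest were not. HBBP1, the beta-like pseudogene between the gamma and delta genes, took 159 and 172 expected counts untreated and 180 and 199 after hemin (log2 fold change 0.19, edgeR adjusted p = 0.281). BGLT3, a noncoding RNA next to it, took 44 and 40 counts untreated and 38 and 57 after hemin (log2 fold change 0.16, edgeR adjusted p = 0.705). HBAP1 had 1 count in 1 untreated library and 0 elsewhere. The read-through gene ENSG00000239920, named after its values were seen, took 149 and 171 expected counts untreated and 111 and 117 after hemin. It was called lower (log2 fold change -0.50, standard error 0.13, edgeR adjusted p = 0.0347), so its reads did not follow those of HBE1 and HBG2, with which it overlaps. It missed the threshold in edgeR without untreated replicate 2 (adjusted p = 0.18) or hemin replicate 2 (adjusted p = 0.086), and in DESeq2 (adjusted p = 0.169). Other members of the globin family were hardly read. MB (myoglobin) and NGB (neuroglobin) had 0 counts in all 4 libraries, and CYGB and ADGB had at most 1.

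The list of 49 regulators of globin genes, written from general knowledge, had 47 members with enough reads to be tested. Of these 12 were called higher and 2 lower, which is 25.5% and 4.26% against 7.0% and 7.14% of all genes tested. Among genes with a mean of at least 50 TPM, a level that part of the list reached, 18.2% were called higher and 8.53% lower. The median log2 fold change of the list was 0.10. It was -0.005 over all genes tested and 0.044 over those with at least 50 TPM. The number called higher was smaller with any library left out, and limma on log2(TPM + 1) called none. That limma fit had 11 higher at an unadjusted p under 0.05. The share of all genes at this unadjusted threshold was not counted, so the 11 have nothing to be set against.

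Among the factors known for driving erythroid globin expression, GATA1 and KLF1 were not called, while LMO2, NFE2 and NFYC were. GATA1, the master erythroid factor, stood at 113 and 120.4 TPM untreated and at 121 and 114 TPM after hemin (log2 fold change 0.04, standard error 0.05, edgeR adjusted p = 0.689). KLF1, which activates the adult beta gene, stood at 35.1 and 35.3 TPM untreated and at 41.3 and 39.7 TPM after hemin, a log2 fold change of 0.23 (standard error 0.07) that was not called, with an edgeR adjusted p of 0.0647. LMO2, a bridging subunit of the GATA1 and TAL1 complex, was called higher, from 57.2 and 63.5 TPM to 80.1 and 76.0 TPM (log2 fold change 0.38, edgeR adjusted p = 0.00975). It missed the threshold without untreated replicate 1, at an edgeR adjusted p of 0.0579. TAL1 and LDB1, also on the list and named after their values were seen, were not called. TAL1 had a log2 fold change of -0.06 (edgeR adjusted p = 0.581) and LDB1 of 0.002 (edgeR adjusted p = 0.988). NFE2, the factor of the locus control region enhancers, was called lower, from 61.1 and 67.4 TPM to 51.1 and 51.7 TPM (log2 fold change -0.31, edgeR adjusted p = 0.0185). NFYC, a subunit of the CCAAT-binding factor that acts at globin promoters, was called higher with a log2 fold change of 0.30 (edgeR adjusted p = 0.0148). The other listed subunits of that factor were not called. NFYA had a log2 fold change of -0.01 (edgeR adjusted p = 0.943) and NFYB of -0.06 (edgeR adjusted p = 0.787). Both NFE2 and NFYC missed the threshold in DESeq2, at adjusted p = 0.0684 and 0.0608. NFE2 also missed it in edgeR without untreated replicate 2 (adjusted p = 0.106) or hemin replicate 2 (adjusted p = 0.054), and NFYC without untreated replicate 1 (adjusted p = 0.0648) or untreated replicate 2 (adjusted p = 0.0636).

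Among the repressors of fetal and embryonic globin, the 2 best known gave no call. BCL11A had 2 and 2 counts untreated and 1 and 2 counts after hemin, too few to be tested. ZBTB7A stood at 19.6 and 17.9 TPM untreated and at 19.8 and 17.4 TPM after hemin, with overlapping groups. MYB, a progenitor factor whose loss raises gamma globin, was called higher, from 93.3 and 83.1 TPM to 129 and 128 TPM (log2 fold change 0.54, standard error 0.05, edgeR adjusted p = 2.48e-04). NR2F2, an orphan nuclear receptor that represses embryonic and fetal globin genes, had the largest log2 fold change of the list, 0.57 (standard error 0.07, edgeR adjusted p = 8.45e-04), from 23.0 and 30.3 TPM to 40.1 and 34.8 TPM. The nuclear receptors NR2C1 and NR2C2 on the list, named after their values were seen, went the other way and were not called. NR2C1 stood at 39.5 and 45.5 TPM untreated and at 32.2 and 32.2 TPM after hemin (log2 fold change -0.23, edgeR adjusted p = 0.0624). NR2C2 had a log2 fold change of -0.11 (edgeR adjusted p = 0.437). CHD4, the ATPase of the NuRD repressor complex, was called higher with a log2 fold change of 0.24 (edgeR adjusted p = 0.00458). The other 5 called higher, CTCF, MBD3, YY1, GATAD2A and BACH1, were named after their values were seen and had log2 fold changes between 0.21 and 0.32. Of these, MBD3 and GATAD2A also belong to NuRD. The NuRD genes MBD2, GATAD2B, HDAC1, HDAC2 and MTA2 on the list, also named after their values were seen, were not called. Their log2 fold changes lay between -0.03 and 0.14, at edgeR adjusted p of 0.138 to 0.768.

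Of the 3 fetal RNA-binding proteins on the list, LIN28B and IGF2BP1 were called higher after hemin and IGF2BP3 was not. LIN28B, which raises gamma globin in adult cells, stood at 21.7 and 22.7 TPM untreated and at 29.1 and 27.7 TPM after hemin (log2 fold change 0.42, standard error 0.05, edgeR adjusted p = 0.00133). IGF2BP1, which acts in the same direction, stood at 62.9 and 62.6 TPM untreated and at 88.5 and 83.2 TPM after hemin (log2 fold change 0.39, standard error 0.04, edgeR adjusted p = 6.67e-04). The groups of LIN28B and of IGF2BP1 do not overlap. IGF2BP3 stood at 113 and 91.8 TPM untreated and at 100.2 and 116 TPM after hemin, which overlap (log2 fold change 0.15, standard error 0.05, edgeR adjusted p = 0.0757).

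Of the genes that tie heme to globin synthesis, EIF2AK1 was called lower. It codes for the heme-regulated kinase that stops globin translation when heme is short. It stood at 174 and 159 TPM untreated and at 119.9 and 129 TPM after hemin, with a log2 fold change of -0.23 on counts (standard error 0.05, edgeR adjusted p = 0.0119) and -0.42 in limma on log2(TPM + 1), with an adjusted p of 0.0864 there. It missed the threshold in edgeR without untreated replicate 1 (adjusted p = 0.0621) and without hemin replicate 1 (adjusted p = 0.0546). BACH1, a repressor that heme inactivates, stood at 27.5 and 23.4 TPM untreated and at 29.5 and 28.2 TPM after hemin (log2 fold change 0.21, edgeR adjusted p = 0.0414). AHSP, the chaperone of free alpha chains, was listed at 0 in all 4 libraries.

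**Figure D5:**
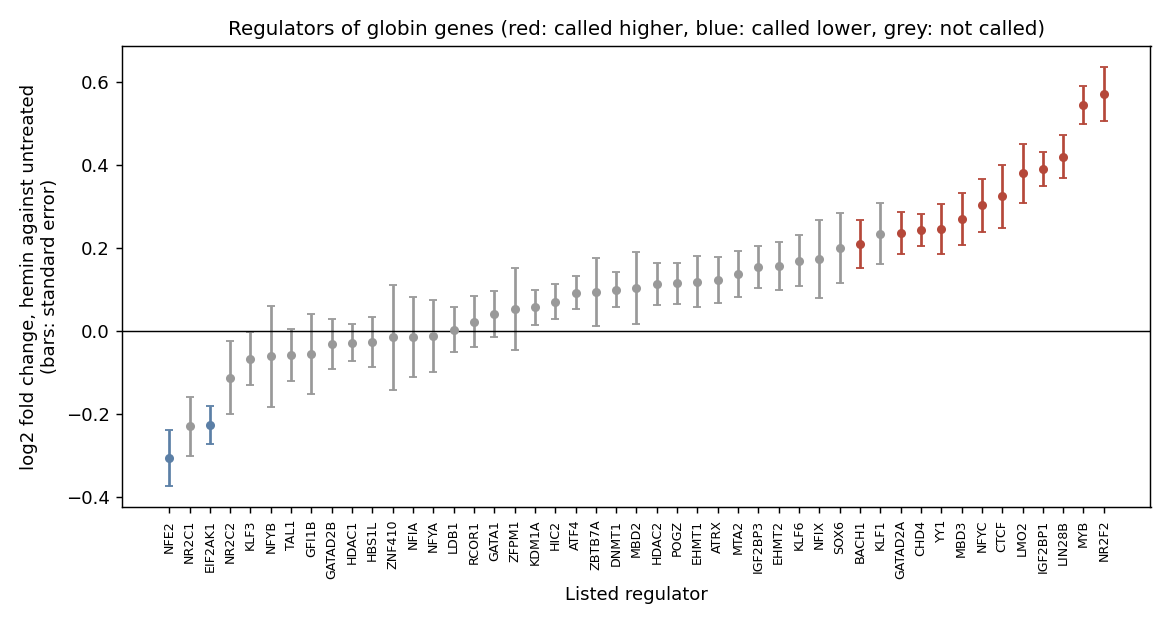
Log2 fold change, hemin against untreated, of the 47 listed regulators that could be tested, with standard errors from the edgeR fit. The 12 red points are called higher and run up to NR2F2 at 0.57, and the 2 blue points, NFE2 and EIF2AK1, are called lower.

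The profile of the summed globins was compared with that of 2864 other genes with a mean of at least 50 TPM. The likeness was the root mean square distance over the 4 libraries between log2(TPM + 1) profiles, each centred on its own mean. The nearest were HSPH1, a chaperone of the heat shock family, at a distance of 0.0103, ATAD3A, an ATPase of the mitochondrial inner membrane, at 0.0139, and TOMM40, the pore of mitochondrial protein import, at 0.015. TMEM97, a membrane protein, followed at 0.0214 and the noncoding RNA LINC00958 at 0.0215. HSPH1 stood at 48.8 and 50.4 TPM untreated and at 66.5 and 63.1 TPM after hemin. With 4 libraries in 2 groups this is a description of these profiles.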

How the data were processed

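Single reads of 50 bases were sequenced from poly(A) RNA of K562 cells. The authors trimmed reads (Trimmomatic 0.39) and quantified them with RSEM 1.3.1 and STAR 2.7.5c on GRCh38 and Ensembl annotation, per the submitters' processing notes and the study's methods. The deposited expected counts are estimated reads per gene, not normalized. The deposited TPM are scaled by effective length and sum to the same total in every library, and the deposited effective lengths were a median of 48.4 bases under the lengths, against a stated mean fragment length of 255. The reason was not tested. The posterior SD comes from RSEM's sampling. The files' FPKM were not used here.

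Here expected counts were rounded, filtered with filterByExpr and, after TMM scaling, fitted in edgeR 4.0.16 (quasi-likelihood F test, condition only, Benjamini-Hochberg, threshold 0.05) in R 4.3.3. The fit was tested on simulated counts with a common dispersion for all genes and changes larger than those of the globins here. How it calls smaller changes was not tested. Standard errors are the log2 fold change over the root of F. Shares and ratios were computed from TPM and tested by exact permutation (scipy 1.17.1). DESeq2 1.42.0, limma 3.58.1 and lengths cut by the study's stated mean fragment length were among the alternatives. Windows and positions came from GENCODE 44, which held 99.84% of the gene IDs and 99.1% of the transcripts in the files. A count of 0 allows up to 3 counts.

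The genes and lists were chosen with earlier results of these data known. Named regulators were the 8 with the smallest p and the 2 largest and 2 smallest log2 fold changes among those called, with AHSP, BCL11A, KLF1, GATA1, MYB and ZBTB7A in any case. The libraries of a group differed by more than counting noise and were counted separately. The labels give no batch.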

Additional observations from a re-analysis of the deposited data

How the results depend on the processing

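The calls of HBA1, HBA2, HBZ and HBE1 held under all alternatives that fitted them as rows of their own: RLE factors, library size only, DESeq2, both count filters, the fit with a replicate block, every library left out in turn, limma on both log2(TPM) scales, posterior mean counts and mitochondrial transcripts left out. Their log2 fold changes ranged from 0.37 for HBE1 to 0.86 for HBA1, with adjusted p up to 0.0462. HBG1 and HBG2 also passed the threshold with no filter on low counts, with a minimum of 20 counts in all libraries of 1 group, and with posterior mean counts. The cause was not tested. HBZP1 missed the threshold in limma, at adjusted p = 0.0864 and 0.0941. The ratio and the 4 shares kept their direction under each alternative. With libraries left out, the embryonic difference ran from 0.107 to 2.3 percentage points and the fetal one from -6.37 to -3.72.

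The number of regulators called higher was 6 to 10 and the number called lower was 1 with any library left out. DESeq2 called 1 lower. Limma on log2(TPM + 1) and on log2(TPM + 0.1) called 0 in either direction, with 11 and 12 higher and 4 and 4 lower at an unadjusted p under 0.05. The share of all genes at that unadjusted threshold was not counted. Over all genes, 1012 higher and 1033 lower became 589 and 479 with DESeq2, 14 and 33 or 15 and 34 with limma, and 469 and 512 or 537 and 532 without untreated replicate 1 or 2. With library size only, 34.9% of calls were higher in place of 49.5%.

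Replicate numbers were shared between groups, but deviations of same-numbered libraries had a correlation over genes of 0.00473. With the replicate block 1741 genes were called in place of 2045, and the same 4 globin genes. With 2 libraries per group, a library left alone was assumed to vary like the others, and HBB, HBM and BCL11A lie at or under the limit of counting.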
